A study of Mus musculus with 2 samples.

Results

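Dividing leukocytes of brown adipose tissue (BAT) were the cell barcodes that held at least 2 UMIs of Mki67, Top2a and Ccna2 together. Of 4295 kept cells, 105 met this rule, namely 32 of 2279 in the control library and 73 of 2016 in the Adipo Δ/Δ library. A UMI is a molecular tag that counts 1 captured RNA molecule, and kept cells had at least 200 detected genes and at most 10% of their UMIs from mitochondrial genes. Each dividing cell was assigned to a lineage by its largest UMI sum among C1qa, C1qb and C1qc (macrophage), Cd3d, Cd3e and Cd3g (T cell), Ncr1, Klrb1c and Klre1 (NK cell), Vcan and Chil3 (monocyte), and Cd79a and Cd79b (B cell). Cells with no such UMI or with a tie were left unassigned.

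The cells were sorted as CD45+ and Dapi-, living leukocytes, from male mice on a C57Bl/6 background. Mice of both libraries carried AdipoQ-CreERT2 and ATGLfl/fl, and the labels give their age as 16 weeks, which differs from the age in the study's text. Injections of 200 uL were given every 2 days for 1 week, followed by 2 weeks of rest, with vehicle for the control library and with tamoxifen at 10 mg/ml for the Adipo Δ/Δ library. The adiponectin promoter drives the inducible Cre in adipocytes, so the lipase gene Pnpla2 (ATGL) was targeted in cells that the sort removed. Pnpla2 in the sorted cells is therefore no check of the deletion, and it stood at 24.3 CPM (UMIs of a gene per 1000000 summed UMIs) in the control versus 27.5 CPM in the Adipo Δ/Δ dividing cells. Each condition is 1 library and the number of mice in it is not stated, so no difference between the libraries has a replicate check. The intervals given are 95% intervals for counting error only.

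A dividing cell copies its DNA in S phase and segregates it after G2 phase in mitosis. Entry into S phase follows the release of E2F factors from the retinoblastoma proteins, and genes of G2 and mitosis are switched on later by complexes that contain B-Myb (Mybl2) and FoxM1. Mki67 encodes Ki-67, which coats mitotic chromosomes, Top2a encodes the topoisomerase that untangles replicated DNA, and Ccna2 encodes cyclin A2, which drives both phases. In adipose tissue, macrophages can be renewed by local division as well as from monocytes.

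The promoter sequences of 5 genes that carried the division program are shown because these genes differ in the short motifs searched here. Each is the stretch of 120 bases before the RefSeq start site (build GRCm38.p6), read toward the gene, and capitals mark a CCAAT box (CCAAT), a CHR (TTTGAA or TTCGAA) or an E2F site (TTTCCCGC, TTTCGCGC, TTTGCCGC or TTTGGCGC) on either strand.
Mki67, chr7:135716380-135716499, strand minus: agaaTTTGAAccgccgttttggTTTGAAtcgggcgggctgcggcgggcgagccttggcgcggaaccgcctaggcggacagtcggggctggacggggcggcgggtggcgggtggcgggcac
Top2a, chr11:99024190-99024309, strand minus: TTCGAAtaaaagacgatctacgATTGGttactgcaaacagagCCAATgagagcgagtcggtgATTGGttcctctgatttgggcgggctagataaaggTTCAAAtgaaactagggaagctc
Pclaf, chr9:65890203-65890322, strand plus: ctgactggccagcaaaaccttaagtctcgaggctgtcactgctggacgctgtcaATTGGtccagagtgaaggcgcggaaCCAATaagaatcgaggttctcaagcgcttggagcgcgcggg
Rrm2, chr12:24708134-24708253, strand plus: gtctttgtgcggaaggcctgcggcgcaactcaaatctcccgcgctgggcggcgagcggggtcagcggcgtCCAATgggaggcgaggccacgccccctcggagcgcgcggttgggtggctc
Birc5, chr11:117849117-117849236, strand plus: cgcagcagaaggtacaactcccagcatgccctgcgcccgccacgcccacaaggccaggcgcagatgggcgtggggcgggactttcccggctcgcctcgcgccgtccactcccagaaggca
The Mki67 stretch held CHR letters, that of Top2a held both CHR and CCAAT letters, those of Pclaf and Rrm2 held CCAAT letters, and none of the searched letters was found in that of Birc5. In windows of 300 bases, from 250 before to 50 after the start, a CHR was present in 72% of 50 windows of the G2/M gene list, in 17.6% of 34 windows of the S phase list and in 19.2% of 32851 windows of all genes in the table. An E2F site was present in 6% of the G2/M windows, 35.3% of the S phase windows and 2.26% of all windows, and a CCAAT box in 74%, 67.6% and 37.4%. The windows matched 45 of 52 G2/M and 31 of 43 S phase genes, and a match is a description of letters only.

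The rule genes defined the cells, and their values are given as a description. Mki67 (ENSMUSG00000031004, chromosome 7, 135689784 to 135716361 on GRCm38) had a UMI in 26 of 32 control and 65 of 73 Adipo Δ/Δ dividing cells. Top2a (ENSMUSG00000020914, chromosome 11, 98992943 to 99024189) had a UMI in 24 and 60 of them. Ccna2 (ENSMUSG00000027715, chromosome 3, 36564865 to 36572150) was the sparsest of the 3, with a UMI in 10 and 35 cells. Hist1h1b (ENSMUSG00000058773, chromosome 13, 21779883 to 21780625), a linker histone made in S phase that the rule did not use, had a UMI in 43.8% of control and 45.2% of Adipo Δ/Δ dividing cells. Among cells with no rule UMI the shares were 4.55% and 2.62%. With a rule sum of 1 they were 12.8% and 9.46%, and with a sum of 2 or 3 they were 6.25% (1 of 16) and 27.3% (6 of 22). In the control the marker thus accompanied the label only at higher rule sums. More than 50% of the dividing cells of each library lacked it, and these shares were not matched for depth. Ptprc, which encodes CD45, had a UMI in 28 of 32 and 67 of 73 dividing cells.

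The values on either side of the threshold were as follows. With a rule sum of 1, 47 control and 74 Adipo Δ/Δ cells were left out, and with a sum of 2, 12 and 16 cells were taken in. G2/M genes stood at 1941 CPM outside and 2693 CPM inside in the control, and at 1510 and 2302 CPM in the Adipo Δ/Δ library. S phase genes stood at 548 CPM outside and 2103 CPM inside in the control, and at 1134 and 1151 CPM in the Adipo Δ/Δ library. In cells with a sum over 3 the G2/M level was 16734 CPM in control and 8331 CPM among Adipo Δ/Δ cells. Dividing cells were also deeper than the rest, with a median of 9105 UMIs in the control versus 12602 UMIs in the Adipo Δ/Δ library, against 3678 and 3942 UMIs over all kept cells. Neutrophils do not divide in tissue and gave the background. A rule sum of at least 2 was found in 1 of 318 control neutrophils (0.314%) and in 0 of 174 Adipo Δ/Δ neutrophils. The count of 0 allows a share of up to 1.72% at a limit of 3 counts, and of up to 2.10% by the Clopper-Pearson interval. Median depths were 3034.5 and 2768.5 UMIs. That 1 control barcode held 24 neutrophil UMIs, 7 C1q UMIs and a rule sum of 4. It is also counted below among the 6 C1q-assigned dividing control cells, and whether it was a doublet was not tested.

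**Figure D1:**
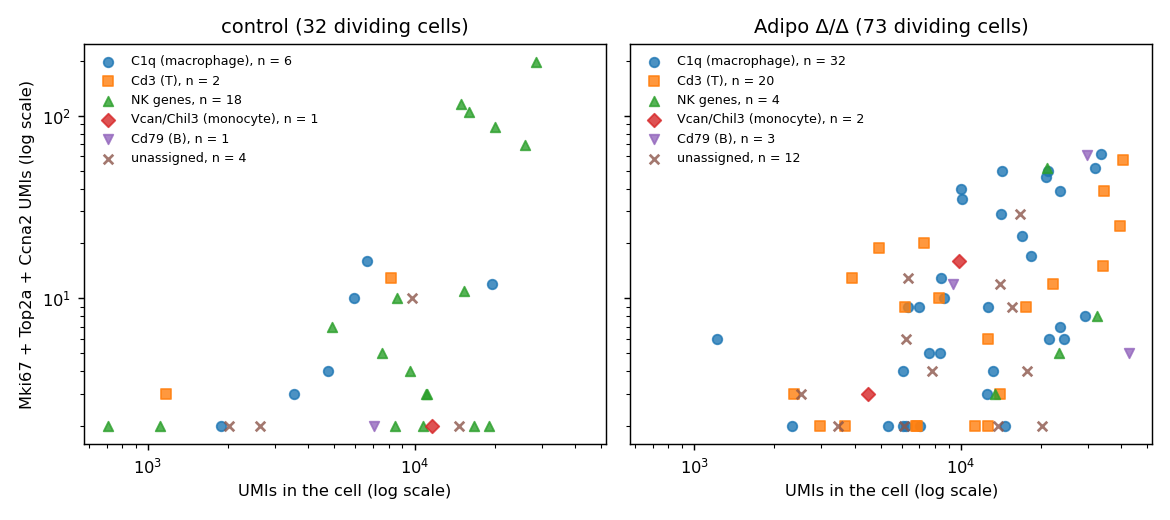
Each point is 1 dividing cell, with its UMIs on the x axis and its summed Mki67, Top2a and Ccna2 UMIs on the y axis, both on log scales, for the control (left) and the Adipo Δ/Δ library (right). The marker shape gives the lineage. In the control, 5 NK-assigned cells with sums of 69 to 197 stand above all others, whereas the 73 Adipo Δ/Δ cells reach at most 62.

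A few cells held most of the rule UMIs of the control library. Its 5 highest cells, all NK-assigned, held sums of 69 to 197, which was 80.6% of the library's 712 rule UMIs and 85.9% of its replication histone UMIs. The 5 highest Adipo Δ/Δ cells held 52 to 62 UMIs each, 26.7% of 1063 rule UMIs, and belonged to 4 lineages. The median rule sum was 3.5 in the control versus 8 in the Adipo Δ/Δ dividing cells. The same 5 control cells held 32.0% of all UMIs of the dividing cells, so the rule genes and histones rest on them more than other summed levels do.

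The share of dividing cells was higher in the Adipo Δ/Δ library. Dividing cells were 1.40% (95% Clopper-Pearson interval 0.962 to 1.98) of kept control cells and 3.62% (2.85 to 4.53) of kept Adipo Δ/Δ cells, a ratio of 2.58 (conditional binomial interval 1.68 to 4.04). When each cell was thinned to 2000 UMIs and a rule sum of 1 was required, the shares were 2.47% and 4.79%, a ratio of 1.94 (1.30 to 2.92), with 620 and 554 shallower cells left out. The thinned shares within lineages were 1.08% and 11.3% for Cd3-assigned cells, 6.00% and 2.44% for NK-assigned cells (ratio 0.407, interval 0.116 to 1.18, which includes 1), and 9.09% and 5.60% for C1q-assigned cells, so the C1q ratio, above 1 without thinning, was then 0.616 (0.254 to 1.71). The libraries also differed in lineage makeup, C1q-assigned cells being 5.84% of kept control and 28.4% of kept Adipo Δ/Δ cells. With the Adipo Δ/Δ rates applied to the control makeup the share was 2.88%, against 1.40% for the control's own rates. With the control rates applied to the Adipo Δ/Δ makeup it was 2.27%, against 3.62%, so the ratio was then 1.60. The mitochondrial share of UMIs was also higher in the Adipo Δ/Δ library, with a median of 2.30% against 1.67% over kept cells, and its part in the difference was not tested.

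The lineages of the dividing cells differed between the libraries. Of 32 control cells, 18 were NK-assigned, 6 C1q-assigned, 4 unassigned, 2 Cd3-assigned, 1 Vcan/Chil3-assigned and 1 Cd79-assigned. Of 73 Adipo Δ/Δ cells, 32 were C1q-assigned, 20 Cd3-assigned, 12 unassigned, 4 NK-assigned, 3 Cd79-assigned and 2 Vcan/Chil3-assigned. C1q-assigned cells were thus 18.8% of control dividing cells, versus 43.8% of Adipo Δ/Δ dividing cells, a ratio of 2.34 whose interval of 0.964 to 6.84 includes 1.

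**Figure D2:**
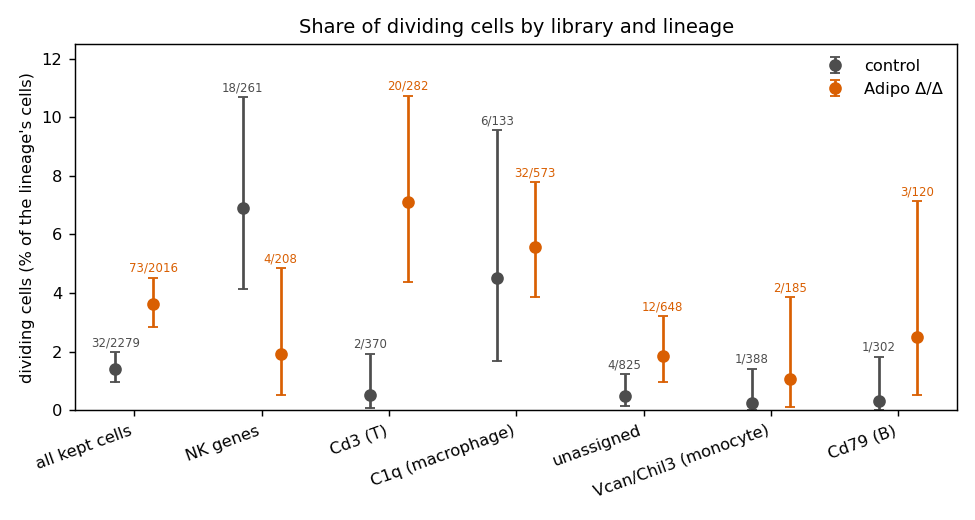
Points are the share of dividing cells in percent of all kept cells, or of the lineage's kept cells, in the control (grey) and Adipo Δ/Δ (orange) library, with 95% Clopper-Pearson intervals and the counts above them. The T lineage is higher and the NK lineage lower in the Adipo Δ/Δ library, and the intervals of the macrophage lineage overlap.

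Within lineages the libraries differed in opposite directions. Among Cd3-assigned cells, 2 of 370 (0.541%, 0.0655 to 1.94) divided in the control and 20 of 282 (7.09%, 4.39 to 10.7) in the Adipo Δ/Δ library, a ratio of 13.1 (3.19 to 116). Among NK-assigned cells, 18 of 261 (6.90%, 4.14 to 10.7) divided in the control and 4 of 208 (1.92%, 0.526 to 4.85) in the Adipo Δ/Δ library, a ratio of 0.279 (0.0686 to 0.847). The NK ratio depended on the threshold and was 1.05 when a rule sum of 1 was enough, and its interval included 1 with rule sums of 3 (0.418, 0.0983 to 1.38) and 4 (0.376, 0.0666 to 1.46). C1q-assigned cells divided at 4.51% (6 of 133, 1.67 to 9.56) in the control versus 5.58% (32 of 573, 3.85 to 7.79) in the Adipo Δ/Δ library. Their ratio of 1.24 had an interval of 0.511 to 3.62, so neither a fall to 0.511 nor a rise to 3.62 was outside the counting error. Unassigned cells divided at 4 of 825 and 12 of 648, a ratio of 3.82 (1.16 to 16.2), Vcan/Chil3-assigned cells at 1 of 388 and 2 of 185, and Cd79-assigned cells at 1 of 302 and 3 of 120.

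The lead of the largest lineage sum was clear for most Cd3- and NK-assigned cells and weak for some C1q-assigned cells. Such a lead does not show that other genes of the lineage are present. A lineage sum of at least 2 UMIs that led the next by at least 2-fold was held by 2 of 2 control and 19 of 20 Adipo Δ/Δ dividing Cd3-assigned cells, by 16 of 18 and 4 of 4 NK-assigned cells, and by 5 of 6 and 21 of 32 C1q-assigned cells. Among the 32 Adipo Δ/Δ C1q-assigned cells, 14 had only 1 or 2 C1q UMIs. A C1q UMI was also present in 5.35% of control and 13.8% of Adipo Δ/Δ neutrophils, which should lack C1q, and whether free RNA or doublets gave it was not tested. UMI sums of at least 2 for more than 1 lineage, as a doublet would have, occurred in 6 of 32 control and 7 of 73 Adipo Δ/Δ dividing cells, against 2.71% and 3.81% of the other kept cells. No doublet was removed, and no barcode of a dividing cell occurred in both libraries.

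Genes were then compared between dividing and other kept cells of the same library, with the other cells weighted to the lineage makeup of the dividing cells. Cells were chosen on 3 genes of the same program in the same cells, so these values describe the dividing cells and no test was made. A gene was counted as higher or lower where its ratio was at least 2-fold in the same direction in both libraries, among 6875 genes with at least 20 UMIs in dividing cells. By this measure 359 genes (5.22%) were higher and 65 (0.945%) lower, and the median log2 ratio over all genes was -0.01 in the control versus 0.12 in the Adipo Δ/Δ library.

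Genes of chromosome segregation led in these cells, which were chosen on Mki67, Top2a and Ccna2. The order of the cell cycle lists is thus not independent of the rule. All 22 listed spindle and kinesin genes were higher, with a median log2 ratio of 4.38 in the control versus 5.12 in the Adipo Δ/Δ library. Stmn1, a tubulin-binding protein, stood at 946 and 890 CPM in dividing cells against 47.3 and 32.4 CPM in the others, and the tubulin gene Tuba1b at 1183 and 1251 CPM against 165 and 302 CPM. Of 17 centromere and kinetochore genes 16 were higher (median 3.97 and 4.65), Zwint being the exception, and Cenpf, which binds the kinetochore in mitosis, stood at 255 and 106 CPM against 3.47 and 0.984 CPM. Of 16 mitotic kinase and checkpoint genes 15 were higher (median 4.09 and 4.60). Birc5 (survivin), which guides Aurora B to centromeres, stood at 340 (280 to 409) and 214 (187 to 244) CPM. All 8 condensin subunits, which compact chromosomes, were higher (median 3.48 and 3.54), among them Smc2 at 221 and 211 CPM against 27.9 and 22.5 CPM.

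Genes of DNA replication were also higher, by a smaller measure. Of 17 origin licensing and helicase genes 12 were higher (median log2 ratio 2.35 and 2.76), and Mcm5, a subunit of the helicase, stood at 146 and 153 CPM against 17.9 and 19.3 CPM. Of 20 replication fork genes 11 were higher (1.21 and 2.09). Pclaf, which binds the sliding clamp PCNA, stood at 443 (374 to 521) and 489 (448 to 533) CPM against 5.82 and 4.47 CPM in the other cells. The clamp gene Pcna itself was less selective, at 230 (182 to 289) and 445 (406 to 487) CPM against 87.8 and 113 CPM. Of 16 nucleotide synthesis genes 7 were higher (0.92 and 1.86), led by Rrm2, the regulated subunit of ribonucleotide reductase, at 106 (73.9 to 148) and 171 (147 to 198) CPM against 1.67 and 3.0 CPM. The purine synthesis genes Paics, Gart and Atic were among those not higher.

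**Figure D3:**
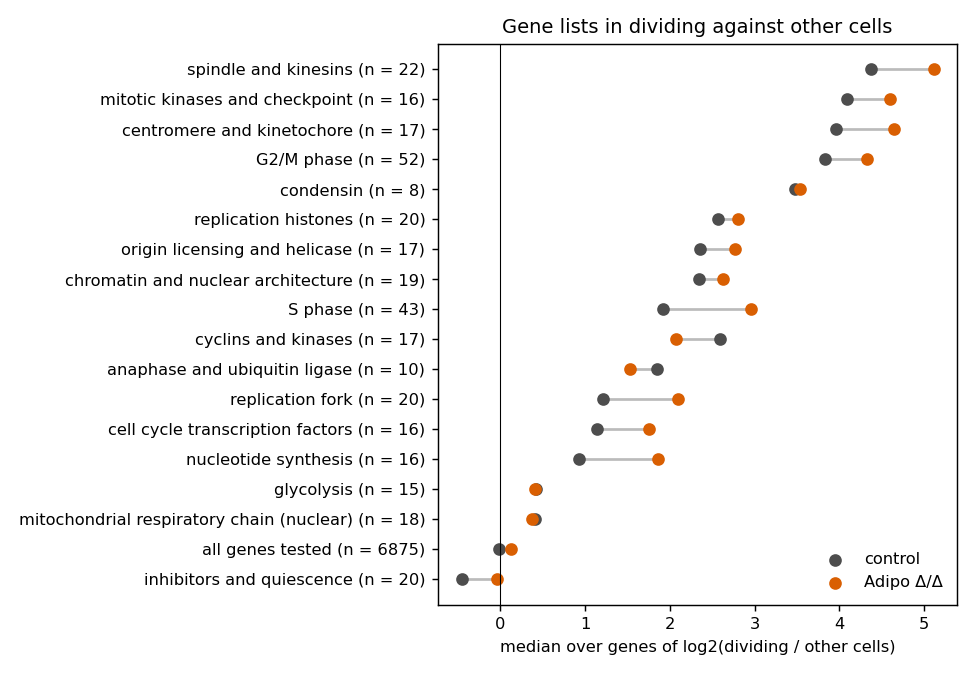
Each row is a gene list with its number of genes, and the points are the median over its genes of the log2 ratio of dividing to other cells in the control (grey) and Adipo Δ/Δ (orange) library. Spindle genes lie highest, at 4.38 and 5.12, and the lists of glycolysis, respiration and inhibitors lie between -0.46 and 0.42.

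Replication histones were higher in dividing cells and differed between the libraries. Of 20 listed genes 13 were higher (median 2.57 and 2.80), and together they reached 7167 CPM in control versus 2535 CPM in Adipo Δ/Δ dividing cells. Hist1h1b stood at 1438 (1311 to 1573) and 435 (396 to 477) CPM, and Hist1h1e, another linker histone, at 1586 (1453 to 1728) and 304 (272 to 339) CPM. These sums lie mostly in the 5 control cells named above. Most replication histone transcripts lack a poly(A) tail, and a method that primes on poly(A) captures them in part. Of 19 chromatin genes 17 were higher (2.35 and 2.63), and Hmgb2, a DNA-bending protein of dividing cells, had a UMI in 30 of 32 and 70 of 73 cells.

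Among regulators, cyclins of G2 and mitosis were higher and D-type cyclins were not. Of 17 cyclin and kinase genes 12 were higher, including Ccnb2 (cyclin B2) at 179 and 134 CPM against 3.09 and 2.70 CPM and Cdk1 at 152 and 114 CPM against 3.15 and 2.44 CPM. Of the D-type cyclins, which act in G1, Ccnd2 stood at 212 and 144 CPM against 527 and 215 CPM in other cells, and Ccnd3 at 224 and 180 CPM against 281 and 150 CPM. Of 16 transcription factor genes 8 were higher, with Foxm1 at 33.4 and 42.6 CPM against 1.10 and 0.241 CPM and E2f1 at 18.2 and 67.3 CPM against 4.37 and 13.1 CPM, while Myc stood at 27.3 and 27.5 CPM against 28.4 and 19.3 CPM. Of 10 genes of anaphase ubiquitin ligation 6 were higher, Ube2c, the ubiquitin-conjugating enzyme that works with the anaphase-promoting complex, at 488 and 214 CPM against 7.98 and 4.29 CPM.

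Of 20 genes of cell cycle inhibition and quiescence 2 were higher, the kinase inhibitor Cdkn2c and the pocket protein Rbl1, and 2 were lower. Klf2, a factor of resting lymphocytes, stood at 212 (165 to 268) and 209 (183 to 239) CPM against 657 and 515 CPM, and the antiproliferative gene Btg1 at 188 (144 to 241) and 200 (174 to 229) CPM against 522 and 490 CPM. None of 15 glycolysis genes and none of 18 nuclear genes of the respiratory chain was called in either direction over all lineages, with medians of 0.42 and 0.41 for the former and 0.41 and 0.37 for the latter. Of 4 neutrophil genes 2 were lower, S100a8 and S100a9, and the other 2 had too few UMIs in dividing cells to be compared. S100a8 stood at 140 and 15.2 CPM against 4402 and 2928 CPM in the other cells. No lineage sum was made for neutrophils, so those without a UMI of another lineage were among the unassigned other cells. The lineage weights therefore did not take neutrophils out of this comparison.

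The libraries differed in the balance of phases. The lists of 43 S phase and 52 G2/M genes contain none of the rule genes. The cells were chosen on those genes, however, so the level of the G2/M share is not independent of the rule. G2/M genes held 82.7% (81.6 to 83.8) of all phase UMIs in control versus 66.5% (65.6 to 67.3) in Adipo Δ/Δ dividing cells, a difference of -16.3 percentage points (Newcombe interval -17.7 to -14.9). The lineages did not all share this direction. In NK-assigned cells the share was 85.4% in the control against 60.3% in the Adipo Δ/Δ library. It was 94.8% (2 cells) against 62.8% in Cd3-assigned cells and 84.3% against 72.2% in unassigned cells. In C1q-assigned cells it was lower in the control, at 58.2% (53.6 to 62.7), than in the Adipo Δ/Δ library, at 67.1% (65.8 to 68.4). The few Vcan/Chil3-assigned (53.3% against 93.7%) and Cd79-assigned cells (64.7% against 80.5%) were also lower in the control. NK-assigned cells were 18 of the 32 control and 4 of the 73 Adipo Δ/Δ dividing cells, so the pooled difference also sets different lineages side by side. The median over cells was 79.6% and 68.2%, and the cells of the libraries overlapped across most of the range. Without the 5 cells of each library with the largest rule sums, chosen once the data had been seen, the difference was -8.39 points (73.8% against 65.4%). The UMIs of 1 cell are not independent, so the interval understates the spread between cells. The S phase gene Tyms, thymidylate synthase, had 12 UMIs in control versus 140 in Adipo Δ/Δ dividing cells, 36.4 (18.8 to 63.6) and 133 (112 to 157) CPM.

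**Figure D4:**
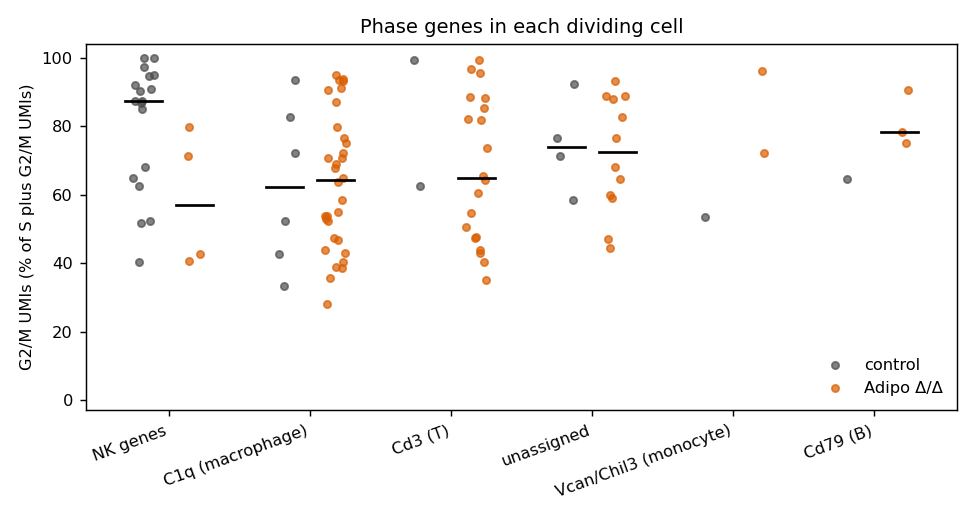
Each point is 1 dividing cell, and the y axis gives its G2/M UMIs as a percentage of its S plus G2/M UMIs, by lineage, in the control (grey) and Adipo Δ/Δ (orange) library. Black bars are medians where there are at least 3 cells. The 18 NK-assigned control cells have a median of 87.4%, and the 32 C1q-assigned Adipo Δ/Δ cells, from 28.1% to 95%, a median of 64.3%.

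Dividing NK-assigned cells of the control differed from the other NK-assigned cells in their surface and effector genes. Itga1, the collagen-binding integrin CD49a found on tissue-resident innate lymphocytes, had a UMI in 11 of 18 dividing (61.1%, 35.7 to 82.7) and 22 of 243 other cells (9.05%, 5.76 to 13.4). After thinning to 2000 UMIs the shares were 37.5% and 2.99%. Genes of mature circulating NK cells went the other way. Gzma, a cytotoxic protease, had a UMI in 33.3% of dividing and 86.4% of other cells, and in 31.2% and 86.3% after thinning. The integrin gene Itgam had a UMI in 5.56% and 53.9%, the transcription factor gene Eomes in 27.8% and 58.8%, and the receptor gene Klra8 in 22.2% and 61.7%. Within the 18 cells, the 11 with an Itga1 UMI included 2 with Gzma, 1 with Eomes and 0 with Itgam, which allows a share of up to 27.3%, and the 7 without it included 4, 4 and 1. In the 5 cells with the largest rule sums (197, 116, 105, 87 and 69) the Itga1 UMIs were 6, 5, 4, 0 and 1 and the Gzma UMIs 0, 0, 0, 338 and 125. Cells with Itga1 held 520 of the 629 rule UMIs of the lineage. The label of NK cell is thus carried by Ncr1, Klrb1c and Klre1, while Gzma and Eomes were absent from most of these cells.

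The 4 dividing NK-assigned cells of the Adipo Δ/Δ library had a UMI of Gzma in 4 of 4, of Eomes in 3 and of Itga1 in 1. Over both libraries 149 (6.22%) of 2397 genes tested in NK-assigned cells were higher and 30 (1.25%) lower in dividing cells, and the higher ones included 31 of 52 G2/M and 8 of 43 S phase genes. Of the 15 NK state genes 3 were lower, Gzma at 2751 and 3551 CPM against 9507 and 8659 CPM in other cells, Prf1 (perforin) at 221 and 255 CPM against 1049 and 1022 CPM, and Klra8 at 113 and 99.9 CPM against 895 and 850 CPM. The chemokine gene Ccl4 was also lower, at 69.4 and 44.4 CPM against 2201 and 1531 CPM. Outside those lists, Phgdh, the enzyme that starts serine synthesis, was higher at 156 and 266 CPM against 46.7 and 44.3 CPM.

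**Figure D5:**
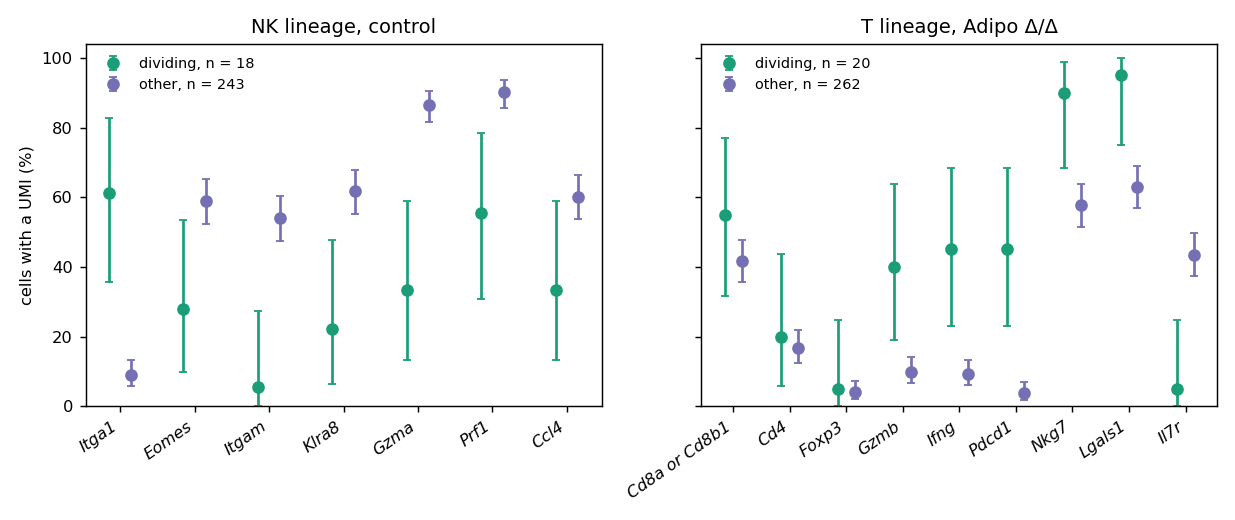
Points are the percentage of cells with a UMI of each gene among dividing (green) and other (purple) cells, for the NK lineage of the control (left) and the T lineage of the Adipo Δ/Δ library (right), with 95% Clopper-Pearson intervals. Itga1 is higher and Gzma lower in dividing NK-assigned cells, and Gzmb and Nkg7 are higher and Il7r lower in dividing Cd3-assigned cells.

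Dividing Cd3-assigned cells of the Adipo Δ/Δ library carried effector genes in a larger share of cells than the other Cd3-assigned cells, and Il7r in a smaller one. Cd8a or Cd8b1, the CD8 coreceptor of cytotoxic T cells, had a UMI in 11 of 20 (55.0%, 31.5 to 76.9) against 41.6% of 262 other cells, Cd4 in 4 of 20 and Foxp3, the regulatory T cell factor, in 1. The granzyme gene Gzmb had a UMI in 8 of 20 (40%, 19.1 to 63.9) against 9.92% of the others, and in 30.0% against 7.92% after thinning. Nkg7, a protein of cytotoxic granules, was found in 90.0% against 51.0% after thinning. Ifng and Pdcd1 each had a UMI in 9 of 20 cells (45.0%), but after thinning in 15% and 10%, against 3.96% and 0.495% of other cells. Il7r, the IL-7 receptor of resting T cells, had a UMI in 1 of 20 (all 12 UMIs in that cell) against 43.5%, and in 5.00% against 37.1% after thinning.

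Of 2125 genes tested in Cd3-assigned cells 173 (8.14%) were higher and 11 (0.518%) lower, but the control held only 2 dividing cells with 9361 UMIs, and each such call rests on them. The higher genes included 18 of 52 G2/M and 7 of 43 S phase genes. Of 24 T cell state genes 1 was higher, Nkg7, at 1496 and 1912 CPM against 601 and 884 CPM, and none was lower. The galectin gene Lgals1 stood at 7157 and 3484 CPM against 368 and 1123 CPM. Of 15 glycolysis genes 3 were called in this lineage. Gapdh was among them at 1068 and 1089 (973 to 1216) CPM, and Ldha, lactate dehydrogenase, stood at 427 and 839 (737 to 951) CPM.

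Dividing C1q-assigned cells had less of the lipid-associated macrophage genes than the other C1q-assigned cells of the same library. Of 11 such genes 5 were lower and none higher, where 39 of 3645 genes tested in this lineage (1.07%) were lower and 267 (7.33%) higher. The summed level was 902 against 3970 CPM in the control and 4324 against 10748 CPM in the Adipo Δ/Δ library. Lgals3 (galectin-3) stood at 261 and 1309 CPM against 1537 and 3956 CPM. Trem2, a lipid-sensing receptor, had 0 UMIs in the 6 control cells and stood at 139 CPM against 372 CPM in the Adipo Δ/Δ library. The lipid chaperone gene Fabp5 stood at 71.2 and 85.0 CPM against 553 and 542 CPM, Cd36, a fatty acid transporter, at 237 and 443 CPM against 497 and 998 CPM, and the lipid droplet gene Plin2 at 23.7 and 244 CPM against 121 and 629 CPM.

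The cycle lists were higher here too, with 34 of 52 G2/M and 25 of 43 S phase genes called. Of 9 resident macrophage genes 1, Lyve1, was lower, and the mannose receptor gene Mrc1 stood at 1044 and 651 CPM against 928 and 572 CPM. Of 10 core macrophage genes 1 was lower, and their sum was 3393 against 6582 CPM in the control and 3738 against 5771 CPM in the other library. Of 8 matrix macrophage genes 3 were lower, with sums of 3084 against 8010 and 4660 against 8873 CPM, and Retnla stood at 2681 and 2382 CPM against 6134 and 5701 CPM. No MHC class II gene was called, although their sum in the control was 9846 CPM against 27844 CPM, and in the Adipo Δ/Δ library 26728 against 27064 CPM. The control values rest on 6 cells with 42151 UMIs, of which 1 cell held 46.2%. That cell held 52 C1q UMIs and 24 UMIs of the NK sum. Another held 5 C1q and 4 Cd3 UMIs, and another 8 C1q, 2 NK and 19 neutrophil UMIs. A further cell held 7 C1q and 24 neutrophil UMIs. The part of doublets in these control levels was not tested.

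The C1q-assigned Adipo Δ/Δ cells were not uniform. The 18 cells with at least 3 C1q UMIs had 4054 CPM of resident and 5489 CPM of core macrophage genes, whereas the 14 with 1 or 2 had 681 and 893 CPM. Lipid-associated genes stood at 4376 and 4241 CPM in these groups, against 12622 and 5188 CPM in the other cells with the same C1q counts. Matrix genes were higher in the cells with few C1q UMIs, at 8088 against 2551 CPM. Genes of type 2 innate lymphocytes (ILC2) stood at 229 CPM (39 UMIs) there, against 97.6 CPM with at least 3 C1q UMIs. Cells with 1 C1q UMI each held 14 and 9 of these 39 UMIs, with 1 MHC class II UMI each. The ILC2 receptor gene Il1rl1 had 22 UMIs in the 14 cells and 21 in the 18. The lineage of these cells beyond C1q was not tested. S phase genes stood at 2977 CPM with at least 3 and at 4822 CPM with 1 or 2 C1q UMIs, and G2/M genes at 8376 and 6067 CPM. With the lineage taken only from at least 3 C1q UMIs, chosen once the data had been seen, the ratio of the dividing shares was 0.857 (0.326 to 2.64).

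Between the libraries, 747 (20.5%) of 3645 genes were at least 2-fold higher and 306 (8.4%) lower in dividing C1q-assigned cells of the Adipo Δ/Δ library. Of the 747, 355 had no UMI in the 6 control cells. In the other C1q-assigned cells the same genes gave 173 (4.75%) higher and 106 (2.91%) lower, and 63 were higher and 24 lower in both. The dividing cells held 42151 control and 447019 Adipo Δ/Δ UMIs, and the other cells 446342 and 3140599. Counting error is therefore larger in the dividing cells, and its part in their larger number of called genes was not tested. Among genes with at least 50 UMIs, the 8 highest had 0 control UMIs and are bounds. The replication histone gene Hist1h2ap was at least 3.99-fold higher (127 UMIs) and stood at 0.548-fold in the other cells. The elastase gene Mmp12 was at least 3.39-fold higher, against 7.46-fold in the other cells, and the receptor gene Cd14 at least 2.55-fold higher, against 0.966-fold. The lowest ratio was that of AW112010, at 0.0644-fold (0.0402 to 0.101) against 0.440-fold in the other cells, followed by Ptprcap at 0.138-fold and Hcst at 0.181-fold. Next were Folr2, a folate receptor of resident macrophages, at 0.196-fold (0.112 to 0.363) against 0.707-fold in the other cells, the monocyte gene Ly6c2 at 0.203-fold, and Nkg7 at 0.221-fold. Ccl5, a lymphocyte chemokine gene, was also far above the level of other C1q-assigned cells, at 2562 and 906 CPM against 325 and 73.6 CPM. However, 1 cell held 394 of the 405 Adipo Δ/Δ and 1 cell 74 of the 108 control UMIs of this gene. The same control cell held 24 UMIs of the NK sum and 14 of the 24 control Nkg7 UMIs. The part of such cells as doublets, in Ccl5 and in the low ratios above, was not tested.

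Unassigned dividing cells and those of the B and monocyte sums were few. Of the 3 Cd79-assigned Adipo Δ/Δ cells, 1 had 28 Cd79 UMIs and 20497 UMIs of B and plasma cell genes among its 42633 UMIs. The other 2 had 1 Cd79 UMI each, with 172 and 1153 MHC class II UMIs and 1 and 3 UMIs of Flt3, a dendritic cell receptor. Of the 12 unassigned Adipo Δ/Δ cells, 10 had at least 31 MHC class II UMIs and 3 had a Flt3 UMI, 1 had 6 UMIs of the ILC2 receptor gene Il1rl1, and 1 held 15 Cd3 and 15 NK UMIs. In the unassigned cells 43 of 1016 genes (4.23%) were higher and 20 (1.97%) lower, among the higher ones Lgals1 at 2095 and 1395 CPM against 349 and 509 CPM and the nuclear transport gene Ran at 378 and 444 CPM against 108 and 165 CPM. The 4 control cells held 29113 UMIs. The other unassigned cells in this comparison included neutrophils, for which no lineage sum was made.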

How the data were processed

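Droplet single-cell RNA sequencing was made from 1 library of control and 1 of Adipo Δ/Δ BAT CD45+ cells. The authors counted UMIs with Cell Ranger 4.0.0 against mm10, and the deposited values are raw counts per gene and barcode, without normalization. The members and lists were chosen with earlier results of these data known. Of 2597 and 2381 barcodes, 2279 and 2016 passed the filters (200 genes, 10% mitochondrial UMIs). The study states a limit of 2%, which would leave 1306 and 889. The study reports more cells than this after its filtering for both libraries, so a limit of 2% here does not give its set of cells. Kept cells held 10753113 and 11316418 UMIs. Counts were summed over cells as CPM. Other cells were weighted to the lineage makeup of the dividing cells, and ratios were (k + 0.5)/(e + 0.5), where k are the UMIs in dividing cells and e those expected from the other cells. Genes needed 20 UMIs in dividing cells. Named genes were the rule genes, Hist1h1b, Ptprc, Pnpla2, the lineage genes, the 4 with most UMIs in each list, members at 0, and the largest and smallest ratios among genes with 50 UMIs (15 and 10 over all lineages, 8 and 5 within a lineage, 8 and 8 between libraries). Cdk1, Ccnb2, Myc, Tyms, Zwint, Paics, Gart, Atic, Cdkn2c, Rbl1, Prf1, Klra8, Trem2, Plin2, Lyve1 and the genes of cell shares were added after their values were seen. Some genes that the rule would name are not reported here. With 1 library per condition no test was made. Exact Poisson, Clopper-Pearson, conditional binomial and Newcombe intervals cover counting error only. The share or fold that a count of 0 allows was taken at 3 counts and is not an end of such an interval, except where the interval is named. Promoter windows on chromosome 18 were not used. Scripts were tested on simulated data. Python 3.11.15 with numpy 2.4.6, scipy 1.17.1, pandas 2.3.3 and matplotlib 3.10.9 was used. Alternatives covered the filters, the rule, depth, lineage assignment, doublets, weights and scaling.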

Additional observations from a re-analysis of the deposited data

Results flagged for a closer look

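The difference between the libraries in the dividing share had opposite directions in T and NK lineages. The ratio of Adipo Δ/Δ to control was 13.1 in Cd3-assigned cells and 0.279 in NK-assigned cells. The difference between them was not tested, since each condition is 1 library, so library and condition cannot be told apart, and the NK ratio was 1.05 with a rule sum of 1.

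Barcodes outside the filters also met the rule. In the Adipo Δ/Δ library 6 of 365 such barcodes held at least 2 rule UMIs, with mitochondrial shares of 11.1% to 51.9% and 1465 to 7351 UMIs, and 3 of them were C1q-assigned and 3 unassigned. In the control library 0 of 318 did, which allows a share of up to 0.943%.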

How the results depend on the processing

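The higher dividing share of the Adipo Δ/Δ library held under 16 alternatives, 2 of which change only the lineages and could not move it, with ratios from 1.60 (both libraries on the Adipo Δ/Δ lineage makeup) to 3.60. The T ratio stayed above 1 under the 13 alternatives that gave one (6.40 to 15.7). With a mitochondrial limit of 2% it could not be formed. The 2 dividing Cd3-assigned control cells had mitochondrial shares of 4.27% and 3.67% and were left out. The ratio in C1q-assigned cells ranged from 0.304 to 2.24 and was above 1 in 10 of 15. The alternatives for the T and NK ratios, the lineage makeups, the cells with the largest rule sums and the C1q minimum were chosen after seeing the data. The causes of the changes below were not tested, except that other gene minimums change how many genes enter. No paired analysis was possible because each condition is 1 library.

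With a mitochondrial limit of 2% the C1q ratio was 0.304, the NK ratio 0.00, the ratio of the C1q-assigned share of dividing cells 0.545 and the G2/M difference -21.9 points, with 141 genes higher and 35 lower in dividing cells, and 81 genes different between libraries in dividing C1q-assigned cells (56 higher, 25 lower). The NK ratio was reversed, at 1.05, with a rule sum of 1. The G2/M difference was -19.4 with a limit of 5%, -19.3 and -19.6 with rule sums of 3 and 4, -18.8 with at least 2 rule genes detected, -19.7 without barcodes of 2 lineages, -11.8 without the deepest 2% of barcodes, and -8.39 without the 5 cells with the largest rule sums.

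The count of 359 higher genes was 203 without the deepest barcodes and 213 with a minimum of 50 UMIs. The count of 65 lower genes was 43 with a rule sum of 1, 13 in thinned cells (which also used a rule sum of 1, here and below), 33 without the deepest barcodes, 103 with means over cells, 25 and 116 with minimums of 50 and 10 UMIs, and 156 without lineage weights. The 1053 genes different between libraries in dividing C1q-assigned cells were 667 in thinned cells, 329 (273 higher, 56 lower) and 2292 (1509 higher, 783 lower) with minimums of 50 and 10 UMIs, and 682 with at least 3 C1q UMIs. Their 306 lower genes were 511 with a rule sum of 1, 159 with Birc5, Nusap1 and Cdk1 as rule genes, 142 in thinned cells, 475 with lineage sums divided by their mean and 155 with at least 3 C1q UMIs. Centring on the median gave 647 higher and 436 lower. Of 60 named genes called in dividing cells, 50 to 60 kept a 2-fold ratio in both libraries under 14 alternatives, and 0 turned.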
